A study of Mus musculus with 8 samples.

Results

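The 10 genes described here carry the display of peptides on MHC molecules: H2-K1, H2-D1, B2m and Nlrc5 of the class I side, and H2-Aa, H2-Ab1, H2-Eb1, H2-DMa, Cd74 and Ciita of the class II side. They were chosen by name, as the spots of the array whose deposited gene name is one of these symbols, and they are 10 of the 22221 genes tested. The array holds 19 probes for them out of 56605, and 16 of these passed the filter on dim probes (well above background on at least 4 of the 8 arrays), 6 of 7 for class I and 10 of 12 for class II. All 10 genes kept at least 1 probe. Expression was measured on 8 one-colour arrays, 1 per sample, of soleus, a slow muscle of the calf, from male C57BL/6J mice aged 14 weeks. The 4 samples labelled P. gingivalis came from mice that received Porphyromonas gingivalis, a bacterium of human gum disease, by feeding needle in saline. The 4 samples labelled saline came from mice that received the saline alone. Both groups ate a high-fat diet, and administration lasted 6 weeks. The design thus asks how the bacterium alters muscle expression under a high-fat diet, with no group on a normal diet.

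Class I molecules consist of a heavy chain, encoded in the mouse by H2-K1 and H2-D1, and the light chain B2m. They show peptides from inside the cell and are found on nearly all nucleated cells. Class II molecules are built from an alpha chain (H2-Aa) and beta chains (H2-Ab1, H2-Eb1), carry the invariant chain Cd74 during assembly, and exchange peptides with the help of H2-DMa. They are made mainly by professional antigen-presenting cells such as dendritic cells, macrophages and B cells, and in resting muscle those cells lie between the fibres. Ciita and Nlrc5 are the coactivators that switch on class II and class I genes, and both act through factors bound to short promoter elements, the X and Y boxes among them.

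The promoters of H2-Aa and H2-Eb1 are shown because letters of both boxes can be read in them, and those of the class I genes are shown beside them. RefSeq windows (build GRCm38.p6, from 250 bases upstream up to the start site, on the strand of the gene) were found for 6 of the 10 genes. Windows are printed for H2-Aa at chr17:34287824-34288073 (minus strand) and H2-Eb1 at chr17:34305617-34305866 (plus strand), with the X box letters GCAACT and the Y box letters CTGATTGG in capitals. Those of H2-K1 at chr17:34000348-34000597 (minus strand) and H2-D1 at chr17:35262844-35263093 (plus strand) have the kappa B letters GGGGATTCCCC and the interferon response letters GTTTCACTTC in capitals. B2m at chr2:122147437-122147686 (plus strand) has its match to the interferon response repeat, GAAA on each side of a short spacer, in capitals.
H2-Aa: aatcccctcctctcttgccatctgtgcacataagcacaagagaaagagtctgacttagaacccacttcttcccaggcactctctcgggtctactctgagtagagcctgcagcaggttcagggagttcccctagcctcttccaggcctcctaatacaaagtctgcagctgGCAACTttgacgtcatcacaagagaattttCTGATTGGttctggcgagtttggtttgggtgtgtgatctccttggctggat
H2-Eb1: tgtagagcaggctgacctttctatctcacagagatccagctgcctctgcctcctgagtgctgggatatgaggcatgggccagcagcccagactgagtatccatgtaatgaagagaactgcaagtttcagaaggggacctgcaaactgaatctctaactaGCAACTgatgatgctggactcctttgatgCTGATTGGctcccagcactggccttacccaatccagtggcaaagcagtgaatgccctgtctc
H2-K1: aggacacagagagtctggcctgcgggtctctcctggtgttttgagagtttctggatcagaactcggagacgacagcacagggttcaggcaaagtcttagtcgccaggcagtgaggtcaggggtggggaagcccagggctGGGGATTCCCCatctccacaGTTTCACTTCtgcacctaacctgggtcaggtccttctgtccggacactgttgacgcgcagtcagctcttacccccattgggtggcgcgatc
H2-D1: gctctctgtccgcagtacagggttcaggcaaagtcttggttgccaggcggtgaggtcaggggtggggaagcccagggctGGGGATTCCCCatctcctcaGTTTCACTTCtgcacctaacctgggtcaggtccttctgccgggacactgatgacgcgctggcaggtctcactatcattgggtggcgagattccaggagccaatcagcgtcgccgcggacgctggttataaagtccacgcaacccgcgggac
B2m: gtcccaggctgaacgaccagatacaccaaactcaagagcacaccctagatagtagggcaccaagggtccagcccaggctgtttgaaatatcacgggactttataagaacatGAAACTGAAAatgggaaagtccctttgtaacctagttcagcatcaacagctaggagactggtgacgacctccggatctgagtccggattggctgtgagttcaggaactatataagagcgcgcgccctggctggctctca

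Each motif was searched on both strands of the 250 upstream bases of 32851 RefSeq windows, and its letters were chosen after these promoters had been read, the class I letters by copying them from the H2-K1 window. The X box letters occurred in 9.01% of all windows and the Y box letters, which contain an inverted CCAAT box, in 3.83%. In H2-Aa the X box letters begin 81 bases and the Y box letters 51 bases before the start site, and in H2-Eb1 they begin 91 and 62 bases before it. The X letters followed by the Y letters within 35 bases on the gene's strand occurred in 3 windows, those of H2-Aa, H2-Eb1 and H2-Eb2. The Y letters also stand in H2-D1, on the other strand, where they do not overlap the printed motifs. The kappa B letters occurred in 0.0304% of windows, the interferon response letters in 0.11% and the GAAA repeat in 2.98%. The kappa B letters followed within 35 bases by the interferon letters occurred in 4 windows, of H2-K1 (both of its start sites), H2-D1 and H2-Q6. The windows of H2-DMa, of which there are 2 and which are not printed, held none of the letters searched. The search was for exact letters, so an X or Y box with other letters would be missed, in class I promoters too. These matches describe letters and were not tested for binding.

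The 60-base probes of 3 genes are shown because what an array reads is the match to such an oligo (build mm9 positions, per the file headers).
H2-Aa, chr17:34421285-34421344, minus strand: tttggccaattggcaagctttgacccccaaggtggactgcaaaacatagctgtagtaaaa
H2-Ab1, chr17:34404357-34404416, plus strand: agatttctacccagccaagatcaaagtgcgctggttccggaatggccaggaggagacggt
H2-K1, chr17:34133984-34134043, minus strand: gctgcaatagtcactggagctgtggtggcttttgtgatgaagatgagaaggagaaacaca
The heavy chain genes H2-K1 and H2-D1 and their neighbours of the H2-Q and H2-K series are close copies of each other, so a probe for one may also bind transcripts of another.

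Facts that hold for all 8 arrays bear on every value below. The arrays lay on 1 slide, P. gingivalis on one side and saline on the other, so side and group cannot be told apart. The P. gingivalis arrays had 34852 to 35365 detected probes (well above background) and the saline arrays 30177 to 34075, the fewest on saline 3. The array P. gingivalis 2 carried an extraction status of to be evaluated in the file header, and the other 7 arrays did not. Markers of slow fibres stood at mean log2 levels of 8.58 to 8.68 in P. gingivalis and 8.43 to 8.54 in saline. Markers of fast fibres stood at 6.83 to 7.81 in P. gingivalis and 6.24 to 7.60 in saline, lowest in saline 1 and P. gingivalis 3, a wider range over the arrays than that of the slow markers. That width came from Myh4 and Actn3. Myh4, a fast myosin, had 6.76, 7.66, 4.03 and 7.11 in P. gingivalis 1 to 4, against 1.95, 7.63, 7.70 and 4.98 in saline 1 to 4. Actn3 had 4.11, 4.24, 2.42 and 4.17 in P. gingivalis, against 1.13, 4.64, 4.43 and 3.69 in saline. Of the remaining fast markers, Atp2a1 had the widest range, with 6.74 to 6.91 in P. gingivalis and 6.25 to 6.45 in saline. Tnni2 ran from 9.44 to 9.68 in P. gingivalis and from 9.31 to 9.42 in saline. All 7 slow and all 7 fast markers were higher in P. gingivalis, next to 10596 of all 22221 genes. Groups did not overlap for 4 slow and 2 fast markers, next to 7.35% of all genes with P. gingivalis higher. Groups were taken from the sample records. In the authors' deposited table all 8 columns match the array of the other group with the same number, so every direction below would turn if that table's names were right, which is not settled. The labels do not state whether the samples are from separate mice, so a p-value reflects only the spread among these 8 arrays, which may be technical.

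Of the 10 genes, 0 passed an adjusted p of 0.05 between the groups (limma with Benjamini-Hochberg adjustment over 22221 genes), against 0.117% of all genes (0.081% lower and 0.036% higher in P. gingivalis). An unadjusted p under 0.05 was reached by 0 of the 10, against 19.7% of all genes (9.66% lower and 10.1% higher). All 10 differences, P. gingivalis minus saline, were below 0, with a median of -0.74 on the log2 scale, a median of -0.87 for the 6 class II genes and of -0.10 for the 4 class I genes. Over all genes tested the median was -0.01 and 52.3% were below 0. The groups overlapped for all 10 genes. Across all genes the groups stood apart for 6.07% with P. gingivalis lower and 7.35% with P. gingivalis higher.

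**Figure D1:**
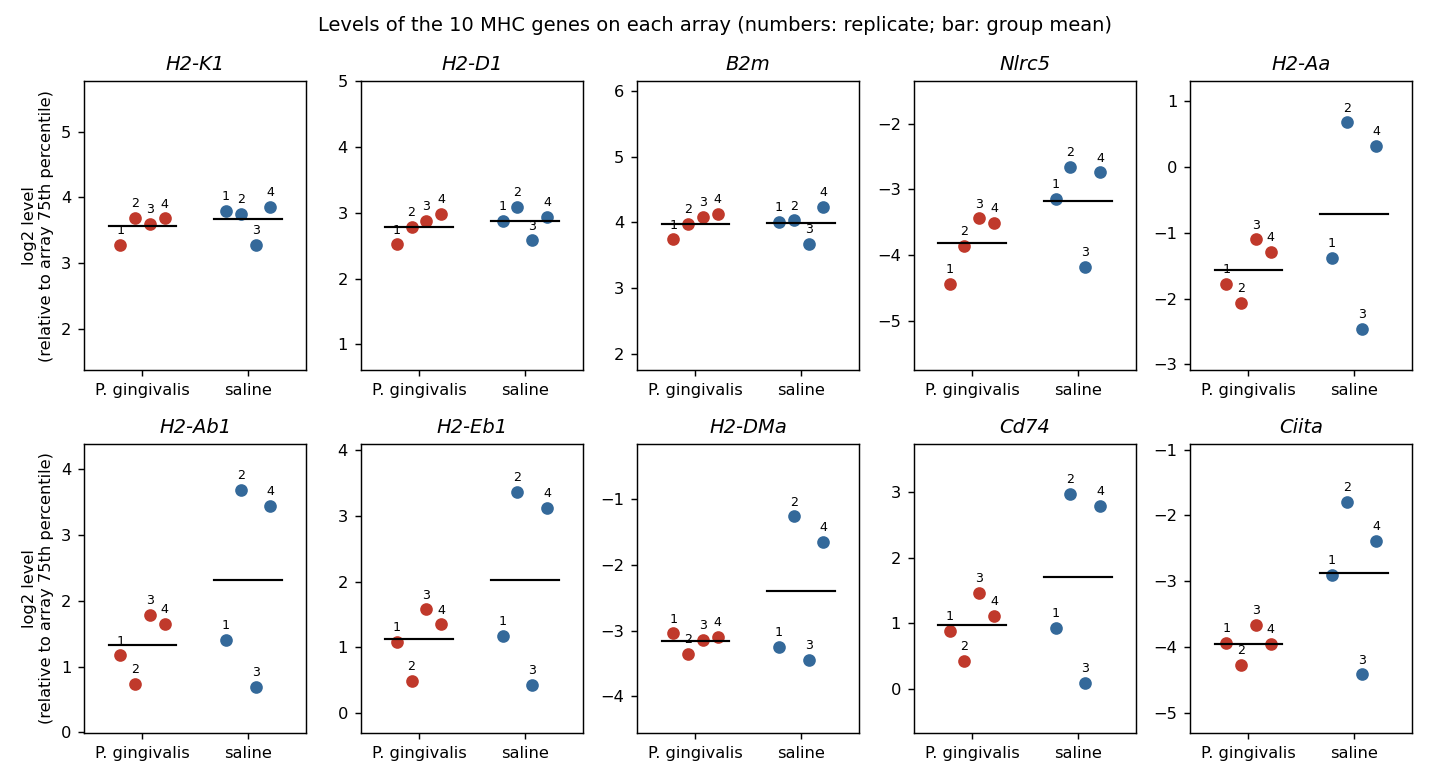
Levels of the 10 MHC genes on the y axis as log2 signal relative to each array's 75th percentile, with the 4 P. gingivalis arrays left and the 4 saline arrays right in each panel, points numbered by replicate and bars at group means. All panels span the same height. For the 6 class II genes, H2-Aa to Ciita, saline 2 and saline 4 lie above the other 6 arrays.

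Levels below are log2 signals relative to the 75th percentile of the same array, so 0 is that percentile and negative values are dimmer spots. They are compared between arrays for 1 probe and not between genes. H2-Aa, the class II alpha chain, had -1.78, -2.06, -1.10 and -1.29 in P. gingivalis 1 to 4, against -1.38, 0.68, -2.46 and 0.32 in saline 1 to 4. Saline 2 and saline 4 were high and saline 3 was the lowest of all 8, so the saline arrays enclosed the P. gingivalis arrays. The log2 difference was -0.84 ± 0.67 (SE, n = 4 and 4; adjusted p = 0.515 in limma's fit).

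H2-Ab1, the beta chain that pairs with H2-Aa, had 1.17, 0.73, 1.78 and 1.65 in P. gingivalis 1 to 4, against 1.41, 3.69, 0.69 and 3.44 in saline 1 to 4 at the probe with the highest signal (chr17:34406296-34406355, mm9). The same pair of saline arrays stood above the rest. The difference was -0.97 ± 0.68 (SE; adjusted p = 0.463, limma). H2-Ab1 has 4 probes, all kept and a pair of them overlapping, and they differed by -0.82 to -0.97 with the same array order at the top. At the probe printed above, P. gingivalis had -1.57, -2.16, -1.12 and -1.25, against -1.32, 0.94, -2.35 and 0.48 in saline. The 4 probes thus gave the same picture for 1 transcript, which is not independent evidence.

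H2-Eb1, the beta chain of the E molecule, had 1.09, 0.49, 1.58 and 1.35 in P. gingivalis 1 to 4, against 1.18, 3.37, 0.43 and 3.12 in saline 1 to 4 (chr17:34453075-34453134, mm9). C57BL/6 mice carry a defect of the partner alpha chain, and the array holds no probe for that pseudogene, H2-Ea-ps. The H2-Eb1 difference was -0.90 ± 0.67 (SE; adjusted p = 0.485, limma). As for the other chains, saline 1 lay among the P. gingivalis arrays and saline 3 below them.

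H2-DMa, a chain of the peptide-exchange molecule DM, had -3.04, -3.35, -3.14 and -3.10 in P. gingivalis 1 to 4, against -3.25, -1.26, -3.45 and -1.65 in saline 1 to 4 (a probe that spans chr17:34274300-34274863, mm9). Its P. gingivalis arrays were the tightest of the class II genes, with an SD of 0.14, against 1.11 in saline. The difference was -0.76 ± 0.49 (SE; adjusted p = 0.427, limma).

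Cd74, the invariant chain that fills the class II groove during assembly, had 0.89, 0.43, 1.46 and 1.11 in P. gingivalis 1 to 4, against 0.93, 2.97, 0.10 and 2.79 in saline 1 to 4 (chr18:60972075-60972132, mm9). This gene lies outside the MHC on another chromosome and showed the same high and low arrays. Its difference was -0.72 ± 0.64 (SE; adjusted p = 0.561, limma).

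Ciita, the coactivator on which class II transcription depends, had -3.94, -4.27, -3.67 and -3.96 in P. gingivalis 1 to 4, against -2.91, -1.80, -4.42 and -2.39 in saline 1 to 4 (chr16:10526458-10526517, mm9). Here saline 1 also lay above all P. gingivalis arrays, and saline 3 lay below them. That probe was well above background on 4 P. gingivalis and 3 saline arrays. The difference of -1.08 ± 0.50 (SE) had adjusted p = 0.284 (limma) and an exact permutation p of 0.143 over the 70 assignments of the arrays. It was the largest of the 10 in size in the processing used here but not in every setting, since it was -0.63 with normexp background correction and -0.64 with the mean of the kept probes, where H2-Ab1 had -0.93 and -0.92. A second kept Ciita probe (chr16:10492271-10492330) was dimmer, with means of -4.73 in P. gingivalis and -4.53 in saline. It was also well above background on 4 P. gingivalis and 3 saline arrays. This probe differed by -0.20 ± 0.22 (SE) and did not have saline 2 and saline 4 on top. The remaining 2 Ciita probes were well above background on 1 array each and were not kept.

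In all 6 class II genes the 2 highest arrays were saline 2 and saline 4, and the 2 lowest were saline 3 and P. gingivalis 2. Over all genes tested, 6.76% had that pair on top and 4.01% that pair at the bottom, and of the 4 class I genes 1 had the first and 0 the second. The 6 genes share the arrays, their labelling and their scaling, so their common order is a description of these 8 samples. Saline levels of H2-Aa spanned 8.80-fold from lowest to highest array and those of H2-Ab1 8.01-fold, whereas P. gingivalis levels spanned 1.95-fold and 2.07-fold. The SD of the class II genes was 0.14 to 0.48 in P. gingivalis and 1.11 to 1.49 in saline, next to a median SD of 0.133 and 0.132 over all genes. By SD among the saline arrays, the 6 genes ranked from 141 to 372 of 22221. The difference in spread between the groups was not tested.

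**Figure D2:**
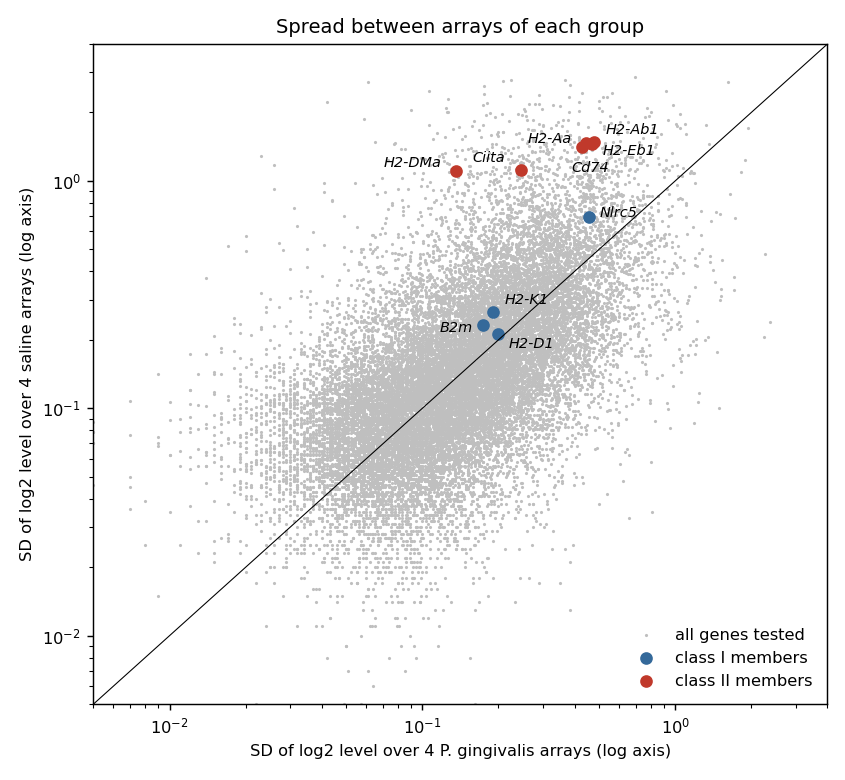
SD of the log2 level over the 4 P. gingivalis arrays (x axis, log scale) and over the 4 saline arrays (y axis, log scale) for every gene tested (grey), the class II members (red) and the class I members (blue), with a line of equal spread. The class II members lie between 1.11 and 1.49 on the saline axis and at most at 0.48 on the P. gingivalis axis.

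Saline 2 and saline 4 were the highest arrays of every class II gene, so leaving them out could only raise the class II differences. In the 4 class I genes both arrays lay above the saline mean, so those differences could only rise too. The size of that rise is given as a description. Without both, a setting added once these levels were known, the class II median was 0.31 in place of -0.87, 5 of the 6 class II genes had a difference above 0, from 0.19 for H2-DMa to 0.46 for Cd74, and Ciita stood at -0.29. The median of all 10 was then 0.17, with 2 below 0. With 1 array left out at a time, the class II median was -0.41 without saline 2, -0.52 without saline 4 and -1.43 without saline 3. The adjusted p of Ciita without saline 3 was 0.0786, the lowest of any of the 10 genes in any setting tried, where the range for Ciita was 0.0786 to 0.789.

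**Figure D3:**
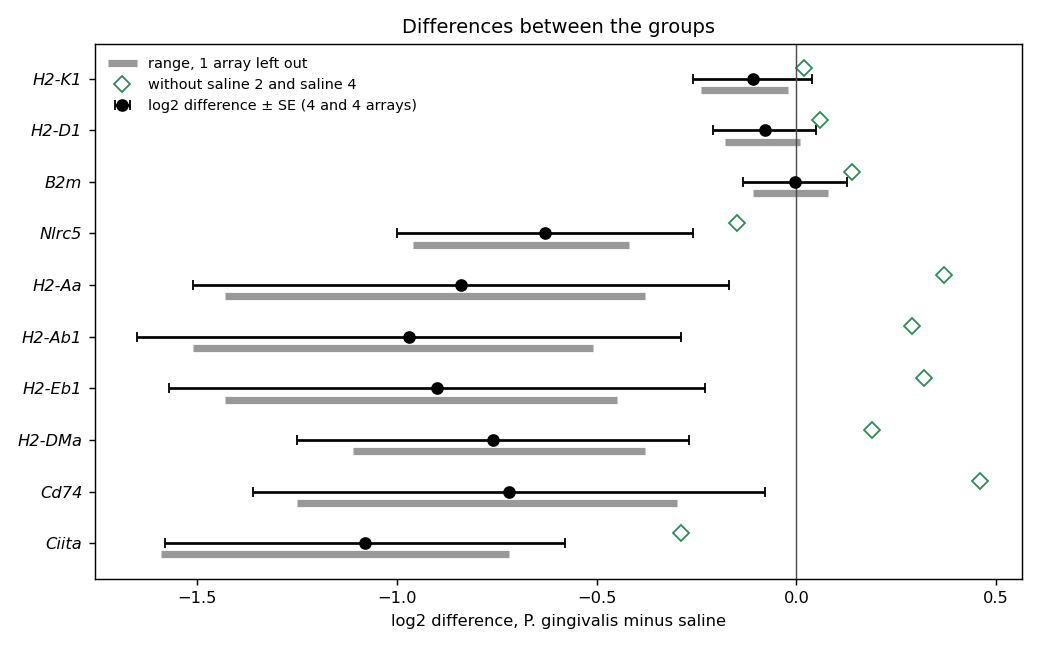
Log2 differences (x axis, P. gingivalis minus saline) of the 10 genes (y axis), as points with SE bars over 4 and 4 arrays, grey bars for the range with 1 array left out, and diamonds for the value without saline 2 and saline 4. Diamonds of 5 class II genes lie right of 0, where all 10 points lie at or left of it. The arrays left out for the diamonds were the highest for the class II genes and above the saline mean for all 10, so every diamond could only move right.

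On the class I side, H2-K1, a classical heavy chain, had 3.28, 3.69, 3.60 and 3.68 in P. gingivalis 1 to 4, against 3.80, 3.75, 3.28 and 3.86 in saline 1 to 4 (chr17:34133055-34133114, mm9). Apart from P. gingivalis 1 and saline 3, both at the lowest level, the arrays lay within a narrow band. The difference was -0.11 ± 0.15 (SE; adjusted p = 0.705, limma), and the second probe, printed above, gave -0.10 ± 0.12 (SE).

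H2-D1, the other classical heavy chain of this strain, had 2.52, 2.79, 2.88 and 2.98 in P. gingivalis 1 to 4, against 2.88, 3.09, 2.58 and 2.94 in saline 1 to 4 (chr17:35403886-35403945, mm9). P. gingivalis 1 and saline 3 were again the lowest arrays. Its difference was -0.08 ± 0.13 (SE; adjusted p = 0.759, limma).

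B2m, the shared light chain, had 3.74, 3.97, 4.08 and 4.13 in P. gingivalis 1 to 4, against 4.01, 4.03, 3.67 and 4.23 in saline 1 to 4 (chr2:121978401-121978460, mm9). The groups lay on top of each other, with a difference of -0.00387 ± 0.13 (SE; adjusted p = 0.991, limma). A second, dimmer B2m probe (chr2:121974599-121974658) differed by -0.46 ± 0.23 (SE; adjusted p = 0.297 over all probes, limma), so the probes of B2m did not give the same value. The signs of the H2-K1, H2-D1 and B2m differences turn under median centring of the arrays (0.04, 0.07 and 0.14), which also moves the median of all genes to 0.14.

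Nlrc5, the class I coactivator, had -4.44, -3.86, -3.44 and -3.51 in P. gingivalis 1 to 4, against -3.14, -2.66, -4.18 and -2.74 in saline 1 to 4 (chr8:97051105-97051164, mm9). Saline 2 and saline 4 were its highest arrays, as in the class II genes, but P. gingivalis 1 was its lowest. The difference was -0.63 ± 0.37 (SE; adjusted p = 0.382, limma), and -0.35 with normexp background correction. SDs in the class I genes were 0.17 to 0.46 in P. gingivalis and 0.21 to 0.70 in saline, the highest in Nlrc5 in both groups.

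Markers of the cells that make class II molecules were set beside these levels. Macrophage markers were measured for 7 of 8 genes, and their mean log2 level was -0.51, -0.72, -0.14 and -0.22 in P. gingivalis 1 to 4, against -0.15, 0.44, -0.82 and 0.40 in saline 1 to 4. Saline 2 and saline 4 were thus highest and saline 3 lowest, as for class II, and in 6 of the 7 genes those were the top arrays. Lyz2, the lysozyme of myeloid cells, had 3.58, 2.83, 3.76 and 3.71 in P. gingivalis, against 3.63, 4.85, 3.02 and 4.74 in saline.

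Dendritic cell markers were measured for 5 of 8 genes, with a mean level of -4.24 to -3.77 in P. gingivalis and -4.76 to -3.12 in saline, highest in saline 4 and saline 2. Xcr1 and Clec9a were well above background on at most 1 array, and Batf3 was left out because of outlier flags. Zbtb46 and Ccr7 were well above background on all 8 arrays, Flt3 and Cd209a on 7 and Itgax on 6. Of the 5 genes, 2 (Itgax and Flt3) had saline 2 and saline 4 as the top arrays, Cd209a had saline 1 and saline 2, Zbtb46 saline 2 and saline 3, and Ccr7 was highest in P. gingivalis 4. Itgax, the integrin CD11c, had -4.96, -5.01, -4.44 and -4.80 in P. gingivalis, against -5.16, -3.26, -5.26 and -2.87 in saline, the same pair of arrays on top, and was well above background on 2 of the 4 saline arrays. B cell markers (3 of 5 measured) stood at -4.22 to -3.96 in P. gingivalis and -4.26 to -3.75 in saline, lowest in saline 2. T cell markers (4 of 6) stood at -1.59 to -1.35 in P. gingivalis and -1.53 to -1.42 in saline, and no gene of either list had saline 2 and saline 4 on top. Cd79a, Cd3g and Cd8a, which define B and T cells, were well above background on at most 1 array.

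Neutrophil markers (5 of 6) stood at -1.70 to -1.32 in P. gingivalis and -0.99 to 0.26 in saline, highest in saline 1 and saline 2. Endothelial markers (7 of 7) stood at a mean of 1.53 to 1.83 in P. gingivalis and 1.72 to 1.84 in saline. Single endothelial genes differed by -0.55 to 0.18, with 4 lower and 3 higher in P. gingivalis. Groups did not overlap for 2 of the lower and 0 of the higher ones, next to 6.07% and 7.35% of all genes. Of the NK cell markers 1 of 3 was measured, Prf1, at -3.30 to -2.58 in P. gingivalis and -2.76 to -2.60 in saline. The part of macrophage, dendritic cell and neutrophil markers in the class II levels was not tested. In whole muscle, fewer cells of a type and less RNA per cell cannot be told apart.

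**Figure D4:**
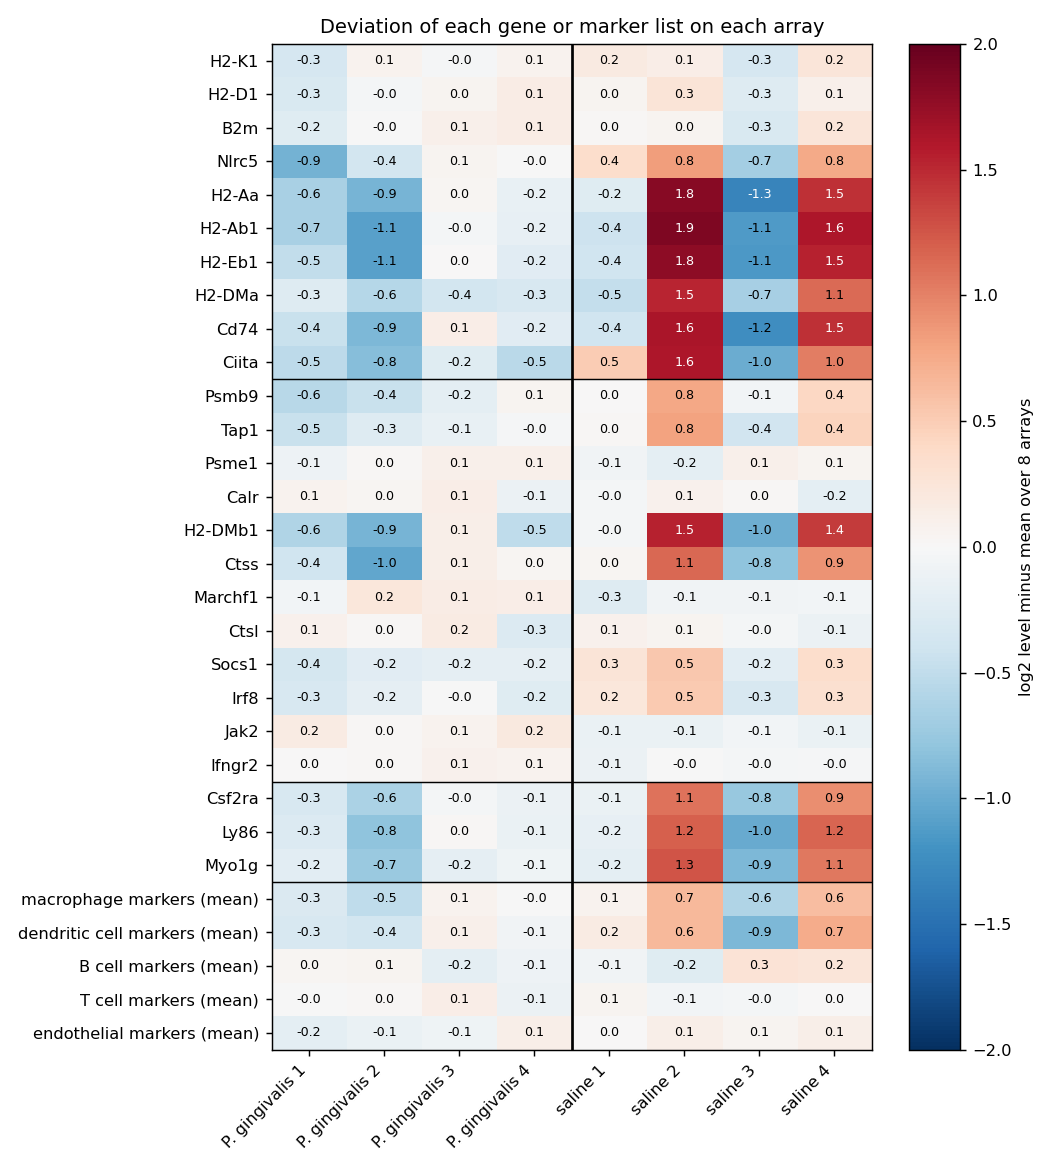
Log2 level of each gene on each array minus its mean over the 8 arrays (colour and printed value), for the 10 members, 12 genes named by rule from the loading, processing and interferon gamma lists, the 3 genes most like the class II chains, and the mean of 5 marker lists. Columns are P. gingivalis 1 to 4 on the left and saline 1 to 4 on the right. The class II rows, H2-DMb1, Ctss, Csf2ra, Ly86, Myo1g and the macrophage and dendritic cell rows are reddest in saline 2 and saline 4. Nlrc5, Psmb9, Tap1, Socs1 and Irf8 also have their highest values in these arrays.

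The genes whose 8 levels followed the mean of H2-Aa, H2-Ab1, H2-Eb1 and Cd74 most closely, of 19402 candidates well above background on every array, were Csf2ra (Pearson r 0.998 over 8 arrays), Ly86 (0.993) and Myo1g (0.991). Because saline 2 and saline 4 stand apart, the same likeness over the other 6 arrays is also given, and it was 0.986, 0.983 and 0.933. Csf2ra had -1.09, -1.40, -0.80 and -0.88 in P. gingivalis 1 to 4, against -0.89, 0.32, -1.52 and 0.16 in saline 1 to 4, with a difference of -0.56 (adjusted p = 0.476, limma). Those most like the mean of H2-K1, H2-D1 and B2m were Slc41a2 (0.986, and 0.984 over the other 6 arrays), H2-Q7 (0.970 and 0.972) and H2-K2 (0.960 and 0.971). H2-Q7 and H2-K2 are close copies of the class I genes themselves. These values were picked as the highest among many and are a description.

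Further genes of the pathway came from 6 lists with 62 genes, of which 55 were measured, and 0 passed the threshold in either direction, against 0.117% of all genes. Of the 55, 33 were below 0 and 22 above it, with a median of -0.06, and 12 had an unadjusted p under 0.05, or 8 lower and 4 higher. Over all genes that share was 19.7% (9.66% lower and 10.1% higher), so 12 of 55 is near the background. Groups did not overlap for 6 genes, 2 lower (Psmb10 among them) and 4 higher (H2-Q4, Nfyb, Jak2 and Ifngr2) in P. gingivalis, next to 6.07% and 7.35% of all genes. Saline 2 and saline 4 were the 2 highest arrays for 19 of the 55, next to 6.76% of all genes. By list these were 6 for class I peptide supply and loading and 4 for other class I and class I-like genes. Class II loading and processing had 2, the interferon gamma route 4, co-stimulation 3 and the promoter factors 0.

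Class II loading and processing had 7 of 10 genes measured, 5 below 0 and 2 above it, with a median of -0.07. H2-DMb1, the partner chain of H2-DMa, had -2.16, -2.49, -1.44 and -2.06 in P. gingivalis 1 to 4, against -1.59, -0.02, -2.53 and -0.15 in saline 1 to 4, a difference of -0.96 ± 0.56 (SE; adjusted p = 0.381, limma). Ctss, the protease cathepsin S that trims the invariant chain, had 0.83, 0.19, 1.34 and 1.26 in P. gingivalis, against 1.26, 2.37, 0.42 and 2.12 in saline, a difference of -0.63 ± 0.45 (SE; adjusted p = 0.467, limma). Both had saline 2 and saline 4 as the highest arrays. Ctsl, another lysosomal protease found in most cells, differed by 0.01 ± 0.10 (SE). Marchf1, a ubiquitin ligase that removes class II from the surface, differed by 0.22 ± 0.08 (SE; adjusted p = 0.194, limma). H2-Oa and H2-DMb2 had no array well above background.

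Class I peptide supply and loading had 12 of 13 genes measured, 8 below 0 and 4 above it, with a median of -0.11. Psmb9, a subunit of the immunoproteasome, had -0.99, -0.88, -0.62 and -0.38 in P. gingivalis 1 to 4, against -0.42, 0.35, -0.49 and -0.01 in saline 1 to 4, a difference of -0.57 ± 0.21 (SE; adjusted p = 0.200, limma). Tap1, which carries peptides into the endoplasmic reticulum, had -2.45, -2.26, -2.15 and -2.03 in P. gingivalis, against -1.97, -1.20, -2.38 and -1.56 in saline, a difference of -0.45 ± 0.24 (SE; adjusted p = 0.345, limma). Saline 2 was the highest array and saline 4 the second highest for both genes, and this pair was on top for 6 of the 12 genes. Psmb10, another immunoproteasome subunit, had 2.83, 2.91, 2.92 and 2.93 in P. gingivalis, against 3.10, 3.13, 3.03 and 3.09 in saline, with no overlap and a difference of -0.19 ± 0.05 (SE; adjusted p = 0.115, limma), and was named after its values had been seen. The proteasome activator Psme1 and the chaperone Calr each differed by 0.06 ± 0.08 (SE).

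Other class I and class I-like genes had 13 of 15 measured, 8 below 0 and 5 above it, with a median of -0.06. Cd1d1, which presents lipids, differed by -0.40 ± 0.25 (SE) with saline 4 far above the other arrays at 0.01, and H2-T24 by -0.26 ± 0.08 (SE; adjusted p = 0.135, limma). H2-Q4 had 5.80, 5.52, 5.52 and 5.57 in P. gingivalis, against 5.37, 5.26, 5.47 and 5.37 in saline, a difference of 0.24 ± 0.08 (SE; adjusted p = 0.174, limma). Fcgrt, the neonatal Fc receptor, differed by 0.11 ± 0.11 (SE).

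Factors that bind MHC promoters had 7 of 7 genes measured, 2 below 0 and 5 above it, with a median of 0.08. Nfyb, a subunit of the factor that binds the Y box, had 0.61, 0.67, 0.77 and 0.64 in P. gingivalis 1 to 4, against 0.34, 0.14, 0.46 and 0.21 in saline 1 to 4. The groups did not overlap, and its difference of 0.39 ± 0.08 (SE; adjusted p = 0.0814, limma) had the lowest adjusted p of the 55 genes. Its 4 kept probes ranged from 0.11 to 0.39. Rfx5, which binds the X box, differed by 0.79 ± 0.51 (SE), with P. gingivalis 1 at -1.39 and the other 7 arrays between -4.04 and -3.32. Nfyc differed by -0.04 ± 0.07 (SE) and Creb1 by -0.19 ± 0.10 (SE), and other probes of Nfyc (up to 0.40) and Creb1 (up to 0.24) differed in sign. None of the 7 had saline 2 and saline 4 as the highest pair.

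Interferon gamma, the cytokine known to raise both MHC classes, was read by 1 probe that was well above background on 0 arrays. Its route had 11 of 12 genes measured, 7 below 0 and 4 above it, with a median of -0.17. Socs1, a feedback inhibitor of the route, differed by -0.47 ± 0.15 (SE; adjusted p = 0.152, limma) and the myeloid factor Irf8 by -0.37 ± 0.17 (SE; adjusted p = 0.279, limma), both highest in saline 2 and saline 4. Jak2, a kinase at the receptor, had 0.65, 0.52, 0.57 and 0.69 in P. gingivalis, against 0.36, 0.36, 0.43 and 0.36 in saline, a difference of 0.23 ± 0.06 (SE; adjusted p = 0.101, limma), while its other kept probe gave -0.15. The receptor chain Ifngr2 differed by 0.09 ± 0.05 (SE; adjusted p = 0.344, limma). Co-stimulation had 5 of 5 genes measured, 3 below 0 and 2 above it, with a median of -0.12. Cd274, the checkpoint ligand PD-L1, differed by -0.48 ± 0.22 (SE; adjusted p = 0.282, limma) and Cd80 by -0.24 ± 0.10 (SE; adjusted p = 0.240, limma), both highest in saline 4 and saline 2.

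The authors' deposited table lists 12 probes of these 10 genes, and 0 of the 12 have an adjusted p under 0.05, against 1.53% of its 28250 rows. With the groups of the sample records, the log2 differences in the authors' deposited table are -0.83 for H2-Aa, -0.88 for H2-Ab1, -0.87 for H2-Eb1 and -0.71 for Cd74. The H2-Ab1 value there is for the probe printed above, which differed by -0.96 here, and not for the brightest probe. Values in the authors' deposited table are smaller in size for H2-DMa (-0.52) and Ciita (-0.71, and 0.02 at its other probe). For Nlrc5 the authors' deposited table lists the probe that was not kept here, at -0.39. For the class I chains the authors' deposited table gives -0.12 for H2-K1, -0.09 for H2-D1, and -0.05 and -0.29 at the probes of B2m. As named in the authors' deposited table, the same values carry the opposite sign.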

How the data were processed

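Soleus RNA (200 ng per sample) was labelled with Cy3 and hybridised to 1 Agilent array per sample. Per the file headers, the deposited spot intensity values came from Agilent Feature Extraction 11.0.1.1, already background-subtracted, while the submitters' processing notes list version 11.1. Each array's processed signal was converted to log2 and its 75th percentile over non-control spots subtracted. Spots of a probe were averaged, and 239 probes with outlier flags were left out. Probes well above background on at least 4 arrays were kept (33636), and the brightest of them stood for each gene. Probe names came from the files or from RefSeq names. limma 3.58.1 in R 4.3.3 compared the groups (two-sided, no covariate), and the fit was tested on simulated data.

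The deposited table of the authors holds log2 values, p-values and 2 score columns that were not used here. Its normalization is not given in the sources used here.

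The members and lists were chosen with earlier results of these data known. Genes were named by rule: all members, from each list the 2 highest and 2 lowest differences among genes well above background on all 8 arrays, and the 3 nearest genes of each class. A gene of the lists is not reported here. Alternatives covered background correction, scaling, dim probes, probe choice, variance model, array weights, the replicate number and each array left out. The number of arrays limits the precision.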

Additional observations from a re-analysis of the deposited data

How the results depend on the processing

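The 10 genes gave 0 calls under each of the 20 alternatives of the fit, and of 209 of their differences, the authors' deposited table included, 192 kept their direction and 17 turned, the cause of which was not tested. For H2-Ab1 and Nlrc5 the authors' value is from another probe than the one used here. Without saline 2 and saline 4 the median of the 10 genes was 0.17 and these turned: Cd74 (0.46), H2-Aa (0.37), H2-Ab1 (0.29), H2-Eb1 (0.32), H2-DMa (0.19), B2m (0.14), H2-D1 (0.06) and H2-K1 (0.02). For all 10 genes the direction of this shift was fixed, since saline 2 and saline 4 both lay above the saline mean. Median centring turned H2-K1 (0.04), H2-D1 (0.07) and B2m (0.14), and moved the median of all genes to 0.14. Centring on kept probes, chosen after seeing the data like the omission of both saline arrays, turned B2m (0.02). Normexp moved Ciita to -0.63, Nlrc5 to -0.35 and H2-DMa to -0.51. With 1 array left out, B2m ran from -0.11 to 0.08, above 0 without saline 1, 2 or 4 or P. gingivalis 1, and H2-D1 from -0.18 to 0.01, above 0 without P. gingivalis 1. The median of the 10 genes then ran from -1.18 to -0.38.

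The count of genes called among all genes was 26 (30.8% higher in P. gingivalis). It was 453 with normexp (59.8% higher), 221 with quantile normalization (71.9%), 2385 with median centring (96.0%) and 91 with centring on kept probes (62.6%). It was 5154 without the filter on dim probes (9.93% higher), 261 where detection was required on all 8 arrays, by which Ciita has no value, 9 with the mean of probes, 57 with every probe tested, 567 with trended and robust variance, and 199 with array weights. It was 3 without saline 2 and saline 4, and 2 to 6 with 1 array left out. The pathway lists had 4 calls with median centring (H2-Q4, Jak2, Marchf1 and Nfyb, all higher), next to 2385 of all 22221 genes. Without the filter they had 3 (Ifng and H2-Oa lower, Nfyb higher), next to 5154 of 36895 genes, 4642 of them lower. Ifng and H2-Oa were well above background on 0 arrays. The lists had 1 call with normexp, next to 453 of 22221 genes. With trended and robust variance they had 1 (Nfyb, higher), next to 567 of 22221.

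With replicate number entered as a block, limma called 0 genes, and 4432 had an unadjusted p under 0.05. The replicate number equalled the row on the slide for all 8 arrays, so number and row cannot be told apart in this block. Arrays of the same number correlated in their deviations at -0.058 to 0.231, so the numbers were not taken as pairs. A block for the slide was not run, since there was 1 slide.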
